A study of Homo sapiens with 2 samples.

Results

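DPP4, the NADPH oxidase subunits NOX1, NOX4, NOX5, CYBB, CYBA, DUOX1 and DUOX2, and the electron donor POR were examined in HSC-3 cells treated with FIN56. These 9 genes, of the 60616 in the expression tables, were picked by symbol as genes tied to oxidant production in ferroptosis. The FIN56 to DMSO ratios of the libraries were already known when the list was drawn up, so these ratios are a description and carry no test. HSC-3 is an established human HNSCC line, that is, a head and neck squamous carcinoma line, grown for both libraries in DMEM with 5% serum and antibiotics. One culture condition was the vehicle, DMSO at 0.1%, and the other was 1 µM FIN56 for 48 h. FIN56 is a compound used to induce ferroptosis, and the treatment time is given by name for the FIN56 library. Each condition had 1 RNA-seq library from 1 cell line, so differences between them could not be checked against replicates, and p-values are not given.

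Ferroptosis is a cell death in which iron-dependent peroxidation of membrane lipids outruns its repair. NADPH oxidases are membrane enzymes that carry electrons from NADPH through FAD and heme to oxygen, which yields superoxide or hydrogen peroxide. DPP4, also called CD26, is a cell surface peptidase that removes dipeptides from the amino end of peptides, and it has been described as a partner of NOX1 at the plasma membrane when p53 does not hold it in the nucleus. POR sits in the endoplasmic reticulum and hands electrons from NADPH to cytochromes P450, and with CYB5R1 it has been described as a source of peroxide in ferroptosis.

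The RSEM expected counts summed to 70184517 under DMSO and 73062209 under FIN56, and the 9 genes together held 3231 and 3392 of them. An expected count is an estimate that splits reads with several possible origins among the genes concerned. FPKM scales it by library size and by an effective gene length, and levels of different genes are compared below only on FPKM or TPM, which account for length. All 8 squamous markers, among them the keratins KRT5 and KRT14 and the transcription factor TP63, had FPKM ratios between 0.781 and 1.24, and their summed FPKM was 5773 under DMSO and 5249 under FIN56. Of 8 leukocyte markers, PTPRC, SPI1, CD3E and MS4A1 were at 0 in both libraries, and the summed FPKM was 4.39 and 5.77, mostly from CD14 (3.62 and 5.15). Of 6 fibroblast markers, COL1A2 was at 0 in both, and the summed FPKM was 5.10 and 2.92. Of 4 endothelial markers, KDR was at 0 in both, and the summed FPKM was 0.08 in each library.

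A gene was called higher at an FPKM ratio, FIN56 over DMSO, of 1.5 or more, the fold used in the study for higher genes. It was called lower at 1/1.5 or less, the mirror image set here. The study reported far fewer higher genes at this fold than this rule calls, so the calls do not stand for its list. Only genes above 0 in both libraries had a ratio. Counting error is given as an exact interval at 95%, by the Poisson method for a count and by the Clopper-Pearson method for a ratio of counts. These intervals cover counting error alone and treat each read as independent. The reads carry no molecular identifiers, so copies of 1 molecule can be counted more than once and the intervals can be too narrow. They compare the 2 libraries rather than the conditions. By this rule DPP4 and NOX5 were higher, 2 of the 7 genes with a ratio, and 0 were lower. Over all 24454 genes with a ratio, 3583 (14.7%) were called higher and 4240 (17.3%) lower. The remaining 5, NOX1, CYBB, CYBA, DUOX1 and POR, lay between the thresholds, and NOX4 and DUOX2 had too few reads for a ratio. The gene just past the threshold was NOX5 (1.57) and the next one below it was CYBB (1.14). The median log2 FPKM ratio was 0.08 over the 7 genes, beside 0 over all genes.

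DPP4 was the gene of the set with the largest ratio. DPP4 (ENSG00000197635) lies on the minus strand of chromosome 2, from 161992245 to 162074394 on GRCh38, and its canonical transcript has 26 exons over 3573 bases. It had 62 expected counts under DMSO (47.5 to 79.5) and 171 under FIN56 (146 to 199). The intervals of the libraries did not overlap. The FPKM was 0.25 and 0.74, and the TPM 0.38 and 1.13, so the transcript was at a low level under both conditions. A change in the share of cells that carry the transcript and a change in the amount per cell cannot be told apart in bulk RNA. The FPKM ratio was 2.96, and rounding of the deposited values to 2 decimals leaves it between 2.88 and 3.04. The ratio of the counts, scaled by library totals, was 2.65 (1.97 to 3.60).

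Low counts spread ratios widely, so the value of DPP4 was set beside those of other genes. Among all genes with a ratio, 911 (3.73%) had an FPKM ratio at least as high. Among the 15770 genes whose expected counts in the libraries together reached 50, as those of DPP4 do, there were 108 (0.685%). In this better counted group 6.84% of genes were called higher and 10.1% lower. Ranked by FPKM among genes above 0, DPP4 stood at percentile 38.0 under DMSO and 49.8 under FIN56. On the rlog scale of the deposited table, which shrinks differences of thinly counted genes, DPP4 was 6.72 and 6.92.

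**Figure D1:**
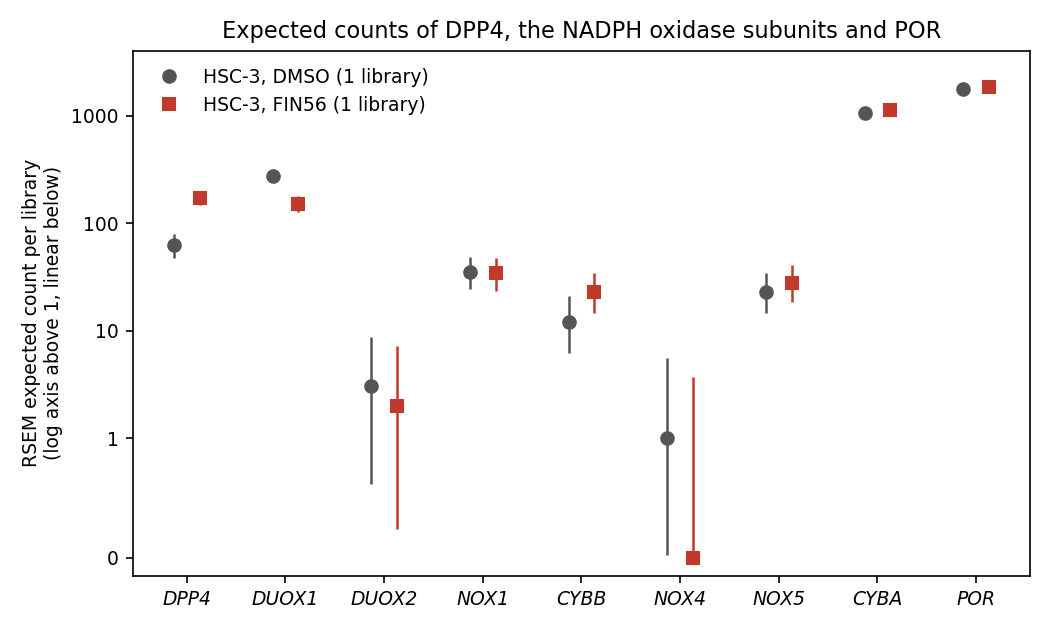
Expected counts (log axis above 1, linear below) of the 9 genes under DMSO (grey circles) and the FIN56 library (red squares), with exact 95% Poisson intervals as bars. DPP4 goes from 62 to 171 and DUOX1 from 274 to 151 with intervals that do not overlap, whereas CYBA (1066 and 1133) and POR (1755 and 1850) have intervals that overlap and NOX4 and DUOX2 have 0 to 3.06 counts.

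Because DPP4 was the only gene of the set past the threshold on both FPKM and counts, the sequence before its start is shown. The RefSeq window for GRCh38.p14 runs from 250 bases before the RefSeq start (162074215) to 50 after it, and 75% of its bases are G or C, beside a median of 58.7% over 35114 such windows. The stretch printed is chr2:162074395-162074465 on the minus strand, 71 bases from -250 to -180, which precede every annotated start of DPP4 in GENCODE 44. Capitals mark the E-box CACGTG at -215 and the cyclic AMP response element core GACGTCA at -188, which do not overlap.
DPP4 upstream: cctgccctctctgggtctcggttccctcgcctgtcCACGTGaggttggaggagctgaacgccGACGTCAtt

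Searched on both strands, CACGTG was present in 7.26% of all windows and GACGTCA in 3.45%. The GC box GGGCGG, found in 45.0% of windows, occurred at -61 and -44 of DPP4. The CCAAT box CCAAT (34.6% of windows), the TATA box TATAAA (11.5%), the antioxidant response element core TGACNNNGC (13.3%) and the STAT site TTCNNNGAA (7.66%) had no match in the DPP4 window. Of the 9 genes, 8 had a RefSeq window, with 10 windows in all because NOX4 has several starts. The E-box and the response element core each matched in DPP4 alone among these 8. The DUOX1 window held 3 GC boxes, at -83, -68 and -14, that of CYBA held 6 GC boxes, that of CYBB 4 CCAAT boxes, and that of DUOX2 1 TATA box. A match is a description of the letters and not evidence of binding.

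The relatives of DPP4 were measured next. Of 8 related peptidase genes, 6 had a ratio, and the median log2 FPKM ratio was 0.11. Among these 6, 1 was higher and 0 were lower, beside 14.7% higher and 17.3% lower over all genes. The gene called higher was FAP, the closest relative of DPP4 and a surface peptidase of activated fibroblasts, with 7 expected counts under DMSO and 20.9 under FIN56. Its FPKM was 0.09 and 0.16, a ratio of 1.78, and its count ratio was 2.87 (1.18 to 8.02). FAP thus rests on few reads, and its count under FIN56 was not whole. The summed fibroblast markers given above were lower under FIN56, mostly through COL1A1, a collagen chain, with FPKM values of 4.25 and 2.19. PDGFRB (0.20 and 0.10) was also called lower, whereas LUM (0.50 and 0.42) and DCN (0.15 and 0.21) lay within the thresholds. Their part in the FAP values was not tested.

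The intracellular relatives were at far higher levels than DPP4 and stayed within the thresholds by FPKM. DPP8 and DPP9, cytosolic peptidases with the same preference for proline, had FPKM ratios of 0.992 (10.3 and 10.2) and 1.17 (47.6 and 55.8). DPP7, a peptidase of intracellular vesicles, had a ratio of 0.894, and the prolyl endopeptidase PREP had a ratio of 1.21. The ratio nearest to the lower threshold was that of DPP3, a cytosolic peptidase of a different structural class, with FPKM values of 56.2 and 38.4, a ratio of 0.683 and a count ratio of 0.659 (0.637 to 0.681), which is past 1/1.5 by counts. DPP6, a channel subunit without peptidase activity, had 1 and 0 counts, and its relative DPP10 was at 0 in both libraries.

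The levels of the 9 genes spanned a wide range. Under DMSO, the order by FPKM was CYBA (25.0), POR (13.7), DUOX1 (1.25), NOX1 (0.51), DPP4 (0.25), NOX5 and CYBB (0.07 each), DUOX2 (0.04) and NOX4 (0.02). CYBA and POR were above 10 in both libraries, and 6 of the 9 genes were below 1 in both. Under FIN56, CYBA (25.4), POR (13.8) and DUOX1 (1.15) again led, followed by DPP4 (0.74), NOX1 (0.54), NOX5 (0.11) and CYBB (0.08), with DUOX2 and NOX4 listed at 0.00. DPP4 and NOX1 thus changed places. The effective length implied by count and FPKM was 978 and 862 bases for NOX1, whose canonical transcript has 2543. For DPP4 it was 3534 and 3163 bases, beside a canonical 3573. The order of these genes therefore depends on the lengths by which their counts were divided. With the counting intervals carried to FPKM, DPP4 (0.192 to 0.320) and NOX1 (0.355 to 0.709) did not overlap under DMSO. They did overlap under FIN56, at 0.633 to 0.860 for DPP4 and 0.374 to 0.755 for NOX1. NOX5 and CYBB overlapped in both libraries, and the levels have no replicate spread.

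NOX1, the catalytic subunit best known from colon epithelium, is on the minus strand of chromosome X, 100843324 to 100874359 (ENSG00000007952). It had 35 expected counts under DMSO and 34 under FIN56, with FPKM values of 0.51 and 0.54. The libraries hardly differed, with an FPKM ratio of 1.06 and a count ratio of 0.933. The counting interval of 0.565 to 1.54 includes differences in either direction of a size that would pass the threshold, so at this depth a moderate difference was not detectable.

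CYBB, the catalytic subunit of the phagocyte oxidase also called NOX2, is on the plus strand of chromosome X, 37780018 to 37813461 (ENSG00000165168). It had 12 expected counts under DMSO (6.20 to 21.0) and 23 under FIN56 (14.6 to 34.5). These intervals overlapped. The FPKM was 0.07 and 0.08, a ratio of 1.14 that rounding leaves between 1.00 and 1.31, while the count ratio was 1.84 (0.879 to 4.06). CYBB therefore lay within the thresholds by FPKM and past 1.5 by counts, and its interval included 1. The leukocyte marker CD14, with 339 and 492 counts, was also higher in count under FIN56, while CSF1R had 110 and 106 counts and ITGAM 42 and 31. The part of these markers in the CYBB values was not tested. The pan-leukocyte marker PTPRC was at 0 in both libraries.

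NOX5, a calcium-activated oxidase with its own EF hands that needs no cytosolic partner, is on the plus strand of chromosome 15, 69014695 to 69062762 (ENSG00000255346). It had 23 expected counts under DMSO (14.6 to 34.5) and 28 under FIN56 (18.6 to 40.5), and these intervals overlapped. The FPKM values of 0.07 and 0.11 gave a ratio of 1.57, past the threshold, but rounding leaves it anywhere between 1.40 and 1.77. The count ratio was 1.17 (0.650 to 2.13), so the higher call of NOX5 was present in FPKM and absent in counts.

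NOX4, an oxidase that makes mainly hydrogen peroxide without an activating signal, is on the minus strand of chromosome 11, 89324353 to 89498187 (ENSG00000086991). It had 1 expected count under DMSO and 0 under FIN56. Its FPKM was 0 under FIN56, so it had no FPKM ratio. Neither count exceeded 3, the floor set here for a count ratio of the listed genes, so no difference was detectable. NOX3, the oxidase of the inner ear, was at 0 in both libraries.

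CYBA is the small membrane subunit that stabilizes NOX1, CYBB, NOX3 and NOX4, and it lies on the minus strand of chromosome 16, 88643275 to 88651083 (ENSG00000051523). It had 1066 expected counts under DMSO and 1133 under FIN56, with FPKM values of 25.0 and 25.4. The FPKM ratio was 1.02, and the count ratio was also 1.02 (0.938 to 1.11). A difference of 1.5 times lies well outside this interval. On the TPM scale CYBA was at 37.4 and 38.8, while NOX1, CYBB, NOX3 and NOX4 summed to 0.89 and 0.94. CYBA was thus 42.0 times its 4 catalytic partners together under DMSO and 41.3 times under FIN56. CYBC1, the chaperone that the CYBA and CYBB pair needs for assembly, had FPKM values close to those of CYBA, 24.6 and 25.2, a ratio of 1.03.

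**Figure D2:**
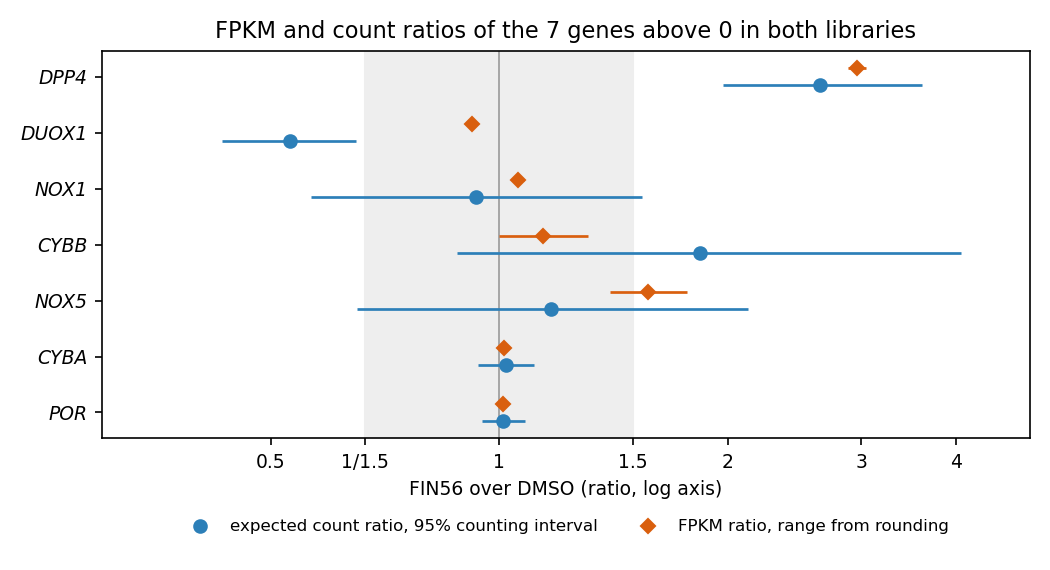
Ratios of FIN56 over DMSO on a log axis for the 7 genes with a ratio, from FPKM (orange diamonds, bars for the range left by rounding) and from expected counts (blue circles, bars for exact 95% counting intervals), with the band between 1/1.5 and 1.5 shaded. Both measures of DPP4 lie above the band, those of CYBA, POR and NOX1 lie inside it, and those of DUOX1 (0.920 and 0.531), CYBB (1.14 and 1.84) and NOX5 (1.57 and 1.17) fall on different sides of a threshold.

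The partners of these oxidases were compared with them. The list held cytosolic activators, POLDIP2, the catalytic subunit NOX3, CYBC1, DUOXA1 and DUOXA2. Of 12 partner genes 10 had a ratio, of which 1 was higher and 4 were lower, with a median log2 FPKM ratio of -0.03, beside 14.7% higher and 17.3% lower over all genes. RAC3, a small GTPase of a family that switches some of these oxidases on, was the well counted gene among those called lower. It had 1191 expected counts under DMSO and 589 under FIN56. Its FPKM was 18.7 and 9.03, a ratio of 0.484 and a count ratio of 0.475 (0.430 to 0.525). Its relatives RAC1 (261 and 304) and RAC2 (85.9 and 84.4) had FPKM ratios of 1.16 and 0.982.

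The other partners called lower rested on few reads. NOXO1, the organizer subunit of the NOX1 oxidase, had 19.3 and 11.1 expected counts, an FPKM ratio of 0.385 and a count ratio of 0.552 (0.239 to 1.23). NCF1, the organizer of the CYBB oxidase, had 21.4 and 9.86 counts and an FPKM ratio of 0.346, and its value is uncertain because near-identical copies of the gene can share its reads. NCF4, a further cytosolic subunit of the CYBB oxidase, was the partner called higher, on 4 and 8 counts, with a count ratio of 1.92 (0.515 to 8.72). NOXA1, the activator of NOX1, had 79 and 84 counts and an FPKM ratio of 1.10. POLDIP2, a protein that binds CYBA and raises NOX4 activity, had an FPKM ratio of 0.982.

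DUOX1 was the gene whose 2 measures differed most in kind. DUOX1 (ENSG00000137857), a calcium-activated epithelial oxidase that releases hydrogen peroxide, lies on the plus strand of chromosome 15, 45129933 to 45165576. It had 274 expected counts under DMSO (243 to 308) and 151 under FIN56 (128 to 177). These intervals did not overlap, and the count ratio was 0.531 (0.431 to 0.648). The FPKM was 1.25 and 1.15 and the FPKM ratio 0.920, within the thresholds and in a range of 0.912 to 0.928 left by rounding. By counts, among the 7 genes with a ratio, DUOX1 was the 1 called lower, and DPP4 and CYBB were the 2 called higher. DUOX2, at 3.06 and 2.01 counts, was left out of this count but would also pass the lower threshold. The floor of 3 counts was not applied to the genes outside the lists. Over the 24825 genes with counts above 0 in both libraries, 17.2% were called lower by counts and 13.8% higher. Of the 15770 genes that reached 50 counts together, 10.1% were called lower by counts and 5.96% higher, and 615 (3.90%) had a count ratio as low as that of DUOX1. The counting interval lay above 1 for DPP4 and below 1 for DUOX1, and included 1 for the other 5, beside 23.1% above and 22.8% below over all genes.

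The measures part through the effective length by which RSEM divides a count. The length implied by the count and the FPKM of DUOX1 was 3123 bases under DMSO and 1803 under FIN56, 0.577 times as long. The canonical transcript has 5483 bases, and the 5 coding transcripts of the 13 annotated range from 436 to 5738. Of the 12638 genes whose FPKM reached 1 in each library, 18 (0.142%) had an implied length shorter by 1.5 times or more under FIN56, and 12 (0.095%) had one longer by as much. DUOX1 was 1 of the 18. The implied length of DPP4 was 3534 and 3163 bases, that of CYBA 608 and 611, and that of POR 1829 and 1830. For CYBB it was 2443 and 3935 bases and for NOX5 4682 and 3484, which is where their 2 ratios differ. Which transcripts were read was not analysed here, so for DUOX1 fewer transcripts and a shift toward shorter ones cannot be told apart.

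**Figure D3:**
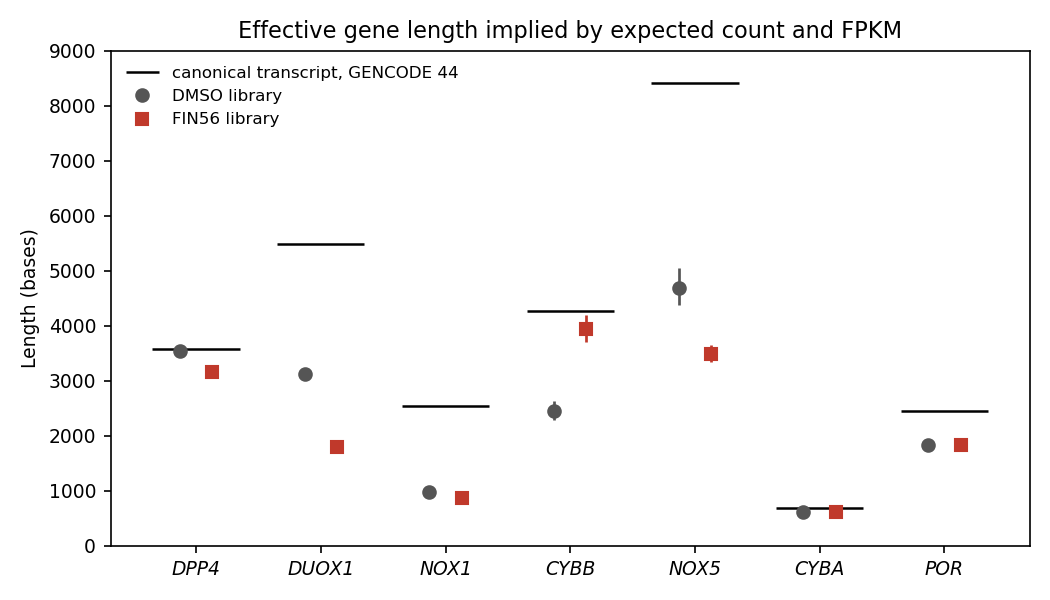
Effective gene length in bases implied by expected count and FPKM under DMSO (grey circles) and the FIN56 library (red squares) for the 7 genes with a ratio, with bars for the range left by rounding of FPKM and black lines for the canonical transcript in GENCODE 44. DUOX1 goes from 3123 to 1803 bases and CYBB from 2443 to 3935, whereas CYBA (608 and 611) and POR (1829 and 1830) hardly move.

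DUOX1 and DUOX2 face away from each other on chromosome 15 and share sequence, so their reads can be divided between them. DUOX2 (ENSG00000140279), the oxidase that serves thyroid hormone synthesis and gut epithelium, is on the minus strand, 45092650 to 45114172. Their canonical coding sequences hold an identical run of 317 bases, from coding base 616 to 932 of DUOX1 and from 634 to 950 of DUOX2, over exons 6 to 9 of each. The canonical transcripts have 450 words of 50 bases in common, which are 8.28% of those of DUOX1 and 7.13% of those of DUOX2. To show how far a read must reach to tell the genes apart, 100 bases of exon 6 are given, 60 before the run and its first 40, from GENCODE 44 on GRCh38. They are chr15:45135534-45135633 on the plus strand for DUOX1 and chr15:45111426-45111525 on the minus strand for DUOX2, and capitals mark the 3 bases that differ.
DUOX1 exon 6: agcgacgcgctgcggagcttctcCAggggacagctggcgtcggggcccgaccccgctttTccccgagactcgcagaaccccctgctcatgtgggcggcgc
DUOX2 exon 6: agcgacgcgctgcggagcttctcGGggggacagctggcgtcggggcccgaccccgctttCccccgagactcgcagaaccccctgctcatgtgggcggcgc

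The expected counts of DUOX2 were 3.06 under DMSO and 2.01 under FIN56, at or near the floor of 3 counts, and no ratio was formed. DUOX1 and DUOX2 were the 2 of the 9 genes whose counts were not whole. A gene on the opposite strand that overlaps DUOX1, ENSG00000259539, had 8.98 and 0.51 counts. The 3 genes together summed to 285.99 and 153.99, each within 0.01 of a whole number. The ratio of these sums was 0.517 (0.422 to 0.631), so the lower count at DUOX1 was not matched by a gain at DUOX2 or at the opposite gene. The library kit keeps strand, but whether strand was used in counting is not given in the sources used here, and reads of DUOX1 and of the gene opposite to it are treated here as uncertain in their division.

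DUOXA1, the maturation factor that carries DUOX1 out of the endoplasmic reticulum, starts 5 bases from DUOX1 on the opposite strand. It had 14 expected counts under DMSO and 4 under FIN56, with FPKM values of 0.11 and 0.02. It was called lower, with an FPKM ratio of 0.182 and a count ratio of 0.274 (0.066 to 0.874), on very few reads. DUOXA2, the factor of DUOX2, starts 154 bases from it and was at 0 in both libraries.

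Across the 7 catalytic genes NOX1, NOX3, NOX4, NOX5, CYBB, DUOX1 and DUOX2, the summed TPM was 2.94 under DMSO and 2.87 under FIN56. DUOX1 held 63.9% and 61.0% of this sum and NOX1 25.9% and 28.6%. By TPM, DUOX1 and NOX1 therefore made up most of this sum under both conditions, at 89.8% and 89.5% together. The near-equal sums and the shares hold for TPM, which divides by the implied length. That length was 3123 and 1803 bases for DUOX1 and 978 and 862 for NOX1, beside canonical transcripts of 5483 and 2543 bases. Whether the reads came from transcripts that encode whole subunits was not tested. By expected counts DUOX1 was lower, at 274 and 151, a count ratio of 0.531.

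POR (ENSG00000127948) lies on the plus strand of chromosome 7, 75899200 to 75986855. It had 1755 expected counts under DMSO and 1850 under FIN56, and FPKM values of 13.7 and 13.8. The FPKM ratio was 1.01 and the count ratio 1.01 (0.948 to 1.08), so POR and CYBA were the genes of the set with the narrowest intervals, both around 1. Its annotated span overlaps that of TMEM120A, on the opposite strand, by 25 bases. CYB5R1, the reductase described beside POR in ferroptosis, had FPKM values of 16.6 in each library, a ratio of 1.00 and a count ratio of 0.986. By FPKM, POR was 0.825 times CYB5R1 under DMSO and 0.834 times under FIN56.

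Of 13 partners and relatives of POR, 10 had a ratio, 0 were called higher or lower, and the median log2 FPKM ratio was 0.03. Among all genes that reached 50 counts together, as these 10 did, 6.84% were called higher and 10.1% lower. The ratios of the 10 ran from 0.684 for CYB5R2 to 1.36 for HMOX1. CYB5R2, a reductase of cytochrome b5, had FPKM values of 5.80 and 3.97 and a count ratio of 0.637 (0.549 to 0.738), past the lower threshold by counts. HMOX1, the inducible heme oxygenase that takes its electrons from POR and frees iron from heme, had 119 and 191 counts and FPKM values of 1.37 and 1.87. Its count ratio was 1.54 (1.22 to 1.96), past 1.5 by counts and short of it by FPKM. The constitutive heme oxygenase HMOX2 had FPKM values of 74.7 and 77.7. The electron carriers CYB5A (15.5 and 18.4) and CYB5B (101 and 111) also stayed within the thresholds, and NOS1, NOS2 and NOS3, the nitric oxide synthases with a POR-like reductase domain, had 0 to 3 counts.

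The enzymes that remove superoxide and peroxide were measured as the counterpart of the oxidases. Of 4 genes 3 had a ratio, 0 were called higher or lower, and the median log2 FPKM ratio was -0.21. Among all genes that reached 50 counts together, as these 3 did, 6.84% were called higher and 10.1% lower. CAT, which breaks down hydrogen peroxide, had FPKM values of 27.7 and 20.1, a ratio of 0.725 and a count ratio of 0.708 (0.674 to 0.743). The cytosolic superoxide dismutase SOD1 had FPKM values of 151 and 131, a ratio of 0.864. The mitochondrial SOD2 had FPKM values of 160 and 197, a ratio of 1.23, with counts that were not whole. SOD3, the secreted form, was at 0 in both libraries.

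Over these 37 related genes, 29 had a ratio, of which 2 were higher, 4 were lower and 23 lay within the thresholds, beside 14.7% higher and 17.3% lower over all genes. The genes called higher, FAP and NCF4, and the genes called lower, NCF1, NOXO1, DUOXA1 and RAC3, include 1 with more than 50 expected counts in the libraries together, RAC3.

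**Figure D4:**
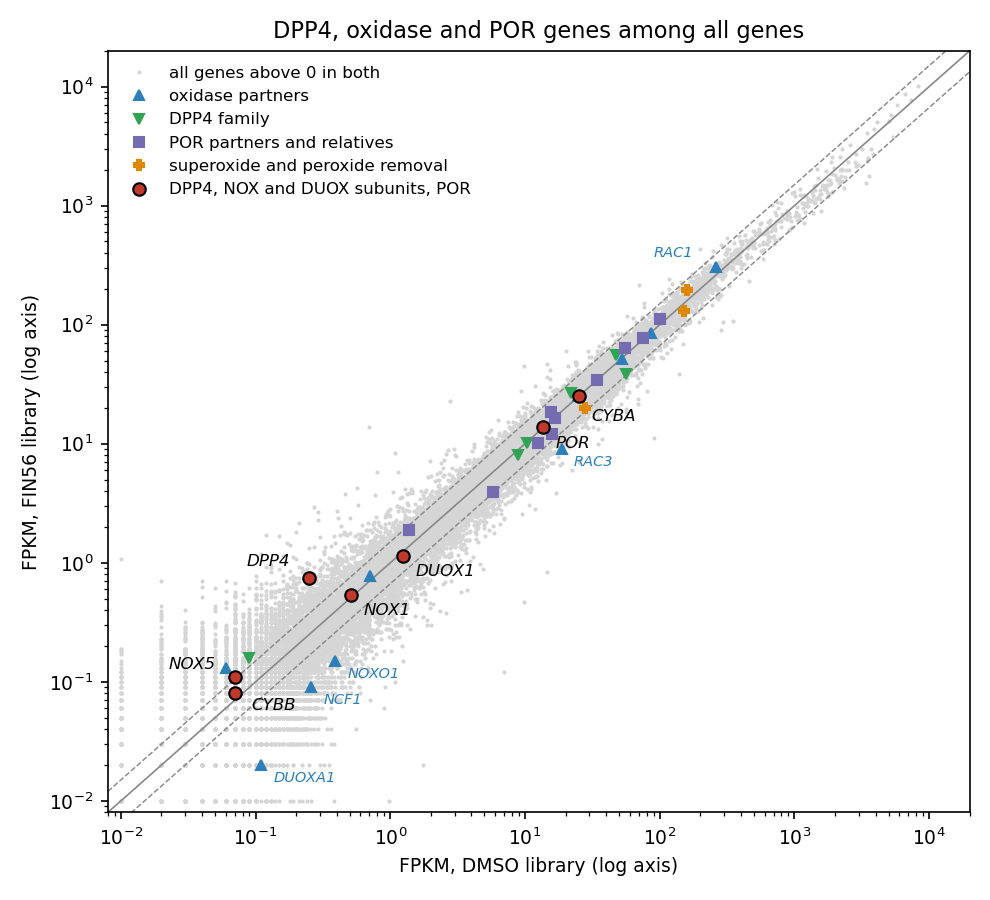
FPKM in the DMSO library against FPKM in the FIN56 library (log axes) for all genes above 0 in both (grey), with DPP4, the NOX and DUOX subunits and POR (red) and 4 lists of related genes in color; the solid line marks equal values and the dashed lines ratios of 1.5 and 1/1.5. DPP4 (0.25 and 0.74) lies above the upper line, CYBA and POR lie on the line of equal values, and RAC3 (0.484) lies below the lower line.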

How the data were processed

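RNA-seq of HSC-3 cells was analysed from 2 libraries, DMSO and FIN56, with 1 library per condition. Per the labels, libraries were made with a stranded mRNA kit and processed with FastQC 0.11.7, STAR 2.6.1a, RSEM 1.3.1 and DESeq2 1.26.0 on GRCh38. The authors deposited RSEM expected counts without normalization. The authors deposited FPKM with 2 decimals, which adjusts for sequencing depth and for gene length as RSEM estimates it. The authors also deposited TPM, which has the same sum in each library, and log2 values from the rlog transform. Each of the 8 columns names its library. The 9 genes and the lists of related genes were chosen with earlier results of these data known, and any of them may be named. The values of some single genes are left out.

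The FPKM ratio, FIN56 over DMSO, was compared with 1.5 and 1/1.5 for genes above 0 in both libraries. Counting intervals (95%) used rounded expected counts, and totals were 70184517 and 73062209. No test between conditions, gene set test or random list was run. The implied effective length is the length that turns the count and library total into the FPKM. Steps were tested on simulated data. Positions came from GENCODE 44 (99.7% of identifiers matched) and upstream windows from RefSeq (GRCh38.p14). Alternatives were TPM, rlog, counts scaled by library totals, by edgeR 4.0.16 TMM or by DESeq2 1.42.0 median-of-ratios, minimum FPKM or counts, pseudocounts and a threshold of 2. Python 3.11.15, numpy 2.4.6, scipy 1.17.1, pandas 2.3.3, matplotlib 3.10.9 and R 4.3.3 were used.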

Additional observations from a re-analysis of the deposited data

How the results depend on the processing

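No paired analysis was possible because there is 1 library per condition, and leaving a library out could not be tried. Of the 9 genes, 2 were called higher by FPKM. The count was 0 with rlog, 0 with a minimum FPKM of 1 in 1 library or more, and 0 with a pseudocount of 1. On the rlog scale 7 of all 24825 genes were called higher and 16 lower, so calls were rare there. With the pseudocount of 1, 476 of 29909 were called higher. The minimum FPKM of 1 left 3 of the 9 genes and removed DPP4 and NOX5. Of the 9 genes, 1 was called higher, DPP4, with a minimum FPKM of 0.1 in both libraries, a pseudocount of 0.1 or a threshold of 2. None of the 9 genes was called lower by FPKM, beside 1 by TPM (DUOX2, on 3.06 and 2.01 counts) and, with DUOX2 kept in, 2 (DUOX1 and DUOX2) by counts scaled by library totals, TMM or median-of-ratios. Of the related genes, 2 were called higher, beside 0 with rlog values, with either minimum FPKM, with either minimum count and with a pseudocount of 1. The number was 1 with a pseudocount of 0.1, where NOS3 (0 and 3 counts) was called and FAP (1.37) and NCF4 (1.44) fell short. It was 1, NCF4, with a threshold of 2, and 3 by counts under each of the 3 scalings. Of the related genes, 4 were called lower, beside 0 with rlog values. By counts the number was 7 with library totals or TMM and 6 with median-of-ratios, with NOS1 (2 and 1 counts) kept in. It was 2 with a minimum FPKM of 0.1 or 10 counts in both libraries. It was 1 with a minimum FPKM of 1, at least 50 counts together or a pseudocount of 1. The ratio of DPP4 ran from 1.14 with rlog values, through 1.39 with a pseudocount of 1, to 2.97 with TPM, and that of DUOX1 from 0.530 with TMM to 0.956 with the pseudocount of 1. The rlog and pseudocount scales shrink the ratios of thinly counted genes by construction. No ratio changed direction past a threshold. For DUOX1, the gap between 0.531 by counts and 0.920 by FPKM follows the implied length given above, whereas 0.956 comes from the pseudocount. The low counts of NOX4, DUOX2, CYBB and NOX5 limit what can be said of them.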
